A study of Mus musculus with 2 samples.

Results

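The genes described here are 41 genes of the cell division cycle, chosen by symbol from the 27998 genes in the tables of a single-cell RNA sequencing study of mouse lung. All 41 symbols occurred once in each table. The mitotic list held 25 of them (Mki67, Top2a, Birc5, Cdk1, Ccna2, Ccnb1, Ccnb2, Cenpa, Cenpe, Cenpf, Ube2c, Nusap1, Tpx2, Aurka, Aurkb, Bub1, Bub1b, Plk1, Kif11, Kif20b, Kif23, Hmmr, Cdc20, Cdca3 and Cdca8). The S-phase list held 11 (Pcna, Mcm2 to Mcm7, Tyms, Rrm2, Gins2 and Uhrf1), and 5 belonged to neither list (Rrm1, Tk1, Stmn1, Ccne1 and Ccne2). The study compared 2 libraries from male C57Bl/6J mice, 1 mouse each: a control and a fibrosis library. Per the labels, mice of 3 months received 100 µg of TiO2 (titanium dioxide) or crocidolite asbestos, a fibre that scars the lung, into the trachea, and lungs were taken 14 days later. The labels do not tie either particle to a library, and they are named here after their group labels alone. Perfused lungs were digested with dispase and DNase I and red cells were lysed, with no sort for a cell type. With 1 library a group no difference could be tested, and all intervals below are 95% intervals that cover counting error only, not the spread between mice.

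A dividing cell first copies its DNA and then separates the copies. Before S phase the MCM proteins are loaded on DNA as the replicative helicase, PCNA is the sliding clamp that holds the polymerases, and ribonucleotide reductase (Rrm1 and Rrm2) and thymidylate synthase (Tyms) supply nucleotides. Later the cell makes mitotic cyclins (Ccna2, Ccnb1, Ccnb2), their kinase Cdk1, the Aurora and Polo kinases, kinesin motors, centromere proteins, the spindle checkpoint kinases Bub1 and Bub1b, and Ube2c and Cdc20, which serve the ligase that ends mitosis. Transcripts of the first group are driven by E2F factors from the end of G1. Those of the second group peak from G2 into mitosis through promoters with CHR elements (cell cycle genes homology regions) and CCAAT boxes. In the adult lung alveolar macrophages and type 2 alveolar epithelial cells (AT2) are known to renew themselves locally, while neutrophils and most circulating monocytes are past division.

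Both classes of promoter element could be read in the members' own sequence. RefSeq promoter windows of build GRCm38.p6, from 250 bases before to 50 bases after the start, were found for 34 of 41 members. The letters searched, on both strands, were TTTGAA and TTCGAA for CHR, CCAAT, and TTTCGCGC, TTTGGCGC and TTTCCCGC for E2F. Matches of different motifs may overlap. Of 22 mitotic genes with a window, 18 (81.8%) held CHR letters, against 2 of 9 S-phase genes (22.2%) and 19.2% of all 32851 windows. CCAAT was in 19 of the 22 mitotic genes and 8 of the 9 S-phase genes, against 37.4% of all windows. E2F letters were in 1 mitotic gene, Cdk1, and in 5 S-phase genes (Mcm3, Mcm5, Mcm6, Mcm7 and Uhrf1), against 1.84% of all windows. Mitotic windows with both CHR and CCAAT numbered 17 of 22, against 7.52% of all windows. A match describes these letters and shows no binding.

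6 windows are printed from 250 bases before to 30 bases after the start, 5′ to 3′ on the gene's strand, with the matched letters in capitals. Ube2c (chr2:164769679-164769958, plus strand) and Ccnb2 (chr9:70421525-70421804, minus strand) are shown because their transcripts were also found in monocytes with few other signs of division. Top2a (chr11:99024160-99024439, minus strand) is the mitotic gene with the most UMIs in the type 1 dendritic-like and alveolar macrophage-like cells, and Bub1 (chr2:127831830-127832109, minus strand) is the mitotic gene found in AT2-like cells with few other mitotic UMIs. Mcm5 (chr8:75109259-75109538, plus strand) and Mcm6 (chr1:128359676-128359955, minus strand) are among the 5 S-phase genes with E2F letters.
Ube2c: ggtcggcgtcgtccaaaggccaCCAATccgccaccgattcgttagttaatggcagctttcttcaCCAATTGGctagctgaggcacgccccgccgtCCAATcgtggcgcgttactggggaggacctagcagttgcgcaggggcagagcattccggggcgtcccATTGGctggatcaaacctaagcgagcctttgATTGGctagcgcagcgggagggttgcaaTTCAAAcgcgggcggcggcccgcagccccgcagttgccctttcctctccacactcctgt
In the Ube2c window the CHR letters begin 29 bases before the start, and 2 of its 6 CCAAT matches overlap on opposite strands.
Ccnb2: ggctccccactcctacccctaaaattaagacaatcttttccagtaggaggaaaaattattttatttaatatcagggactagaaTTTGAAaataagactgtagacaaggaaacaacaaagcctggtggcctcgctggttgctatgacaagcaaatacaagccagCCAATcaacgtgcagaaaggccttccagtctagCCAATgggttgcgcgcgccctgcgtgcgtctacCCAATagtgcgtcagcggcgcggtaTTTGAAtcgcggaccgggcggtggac
Top2a: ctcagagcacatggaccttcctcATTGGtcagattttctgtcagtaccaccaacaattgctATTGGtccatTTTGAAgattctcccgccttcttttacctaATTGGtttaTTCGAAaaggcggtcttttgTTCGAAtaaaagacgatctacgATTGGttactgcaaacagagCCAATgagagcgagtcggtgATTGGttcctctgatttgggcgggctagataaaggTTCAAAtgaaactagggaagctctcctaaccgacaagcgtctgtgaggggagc
Top2a had 4 CHR and 6 CCAAT matches in its window.
Bub1: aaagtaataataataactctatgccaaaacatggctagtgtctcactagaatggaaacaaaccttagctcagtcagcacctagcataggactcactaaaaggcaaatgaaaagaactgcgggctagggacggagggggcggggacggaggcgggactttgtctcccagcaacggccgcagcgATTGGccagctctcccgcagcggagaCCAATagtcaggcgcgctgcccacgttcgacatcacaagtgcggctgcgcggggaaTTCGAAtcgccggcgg
Mcm5: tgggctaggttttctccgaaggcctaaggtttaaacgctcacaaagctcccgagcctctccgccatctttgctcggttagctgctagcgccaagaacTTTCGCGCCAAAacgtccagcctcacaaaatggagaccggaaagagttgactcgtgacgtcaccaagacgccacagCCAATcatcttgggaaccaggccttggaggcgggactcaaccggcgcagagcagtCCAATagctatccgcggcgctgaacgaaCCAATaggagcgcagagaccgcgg
Mcm6: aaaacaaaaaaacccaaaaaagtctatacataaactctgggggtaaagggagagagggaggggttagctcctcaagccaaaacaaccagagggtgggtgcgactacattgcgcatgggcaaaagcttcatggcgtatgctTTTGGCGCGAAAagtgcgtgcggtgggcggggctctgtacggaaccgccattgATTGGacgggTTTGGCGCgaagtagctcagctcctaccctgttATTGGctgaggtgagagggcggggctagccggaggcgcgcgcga
All 4 mitotic windows held CHR and CCAAT letters and no E2F letters, whereas the Mcm5 and Mcm6 windows held E2F and CCAAT letters and no CHR letters. The printed windows do not stand for their whole lists. Of the S-phase genes, Mcm2, Pcna, Rrm2 and Tyms held no E2F letters, and Mcm2 and Mcm7 held CHR letters.

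The deposited tables held 8280 control and 7173 fibrosis cells, with totals of 36632591 and 38090308 unique molecular identifiers (UMIs, one per captured transcript end). After filters 7510 and 6559 cells were kept, with median depths of 3706 and 4237 UMIs, and 92.7% of them were put in a cell class by marker genes. Class names carry the word like because they rest on markers alone. In 14 classes both libraries had at least 50 cells. The libraries shared 89 barcodes, and leaving those cells out changed the number of mitosis-rich cells defined below from 90 to 87 and from 167 to 166. Levels are UMIs per 1000000 UMIs of the class (CPM). These UMIs count 3′ ends and are not scaled to length, so levels were compared between classes and libraries and not between genes.

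Mitotic UMIs were packed into few cells. Of the kept control cells, 5926 had no UMI of the 25 mitotic genes, 1171 had 1, and 90 (1.20%) had 10 or more. In the fibrosis library 5062 had none, 1005 had 1, and 167 (2.55%) had 10 or more. Cells with 10 or more mitotic UMIs, set as the bound after the values were seen, are called mitosis-rich. Just under it, at 5 to 9, lay 29 control and 47 fibrosis cells, so the bound marks no empty gap. Mitosis-rich cells were also deeper, with median totals of 7469 and 7743 UMIs against 3664 and 4190.5 in the others, and the part of depth was not tested. They made up 2.22% and 4.52% of all UMIs but held 68.2% and 79.3% of mitotic UMIs. The same cells held 24.2% and 31.2% of S-phase UMIs. They were chosen by their mitotic UMIs, so these shares do not rank the lists by spread. Because mitotic UMIs come many to a cell, intervals that treat UMIs as independent are too narrow for this list, and shares of cells are given beside the levels.

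**Figure D1:**
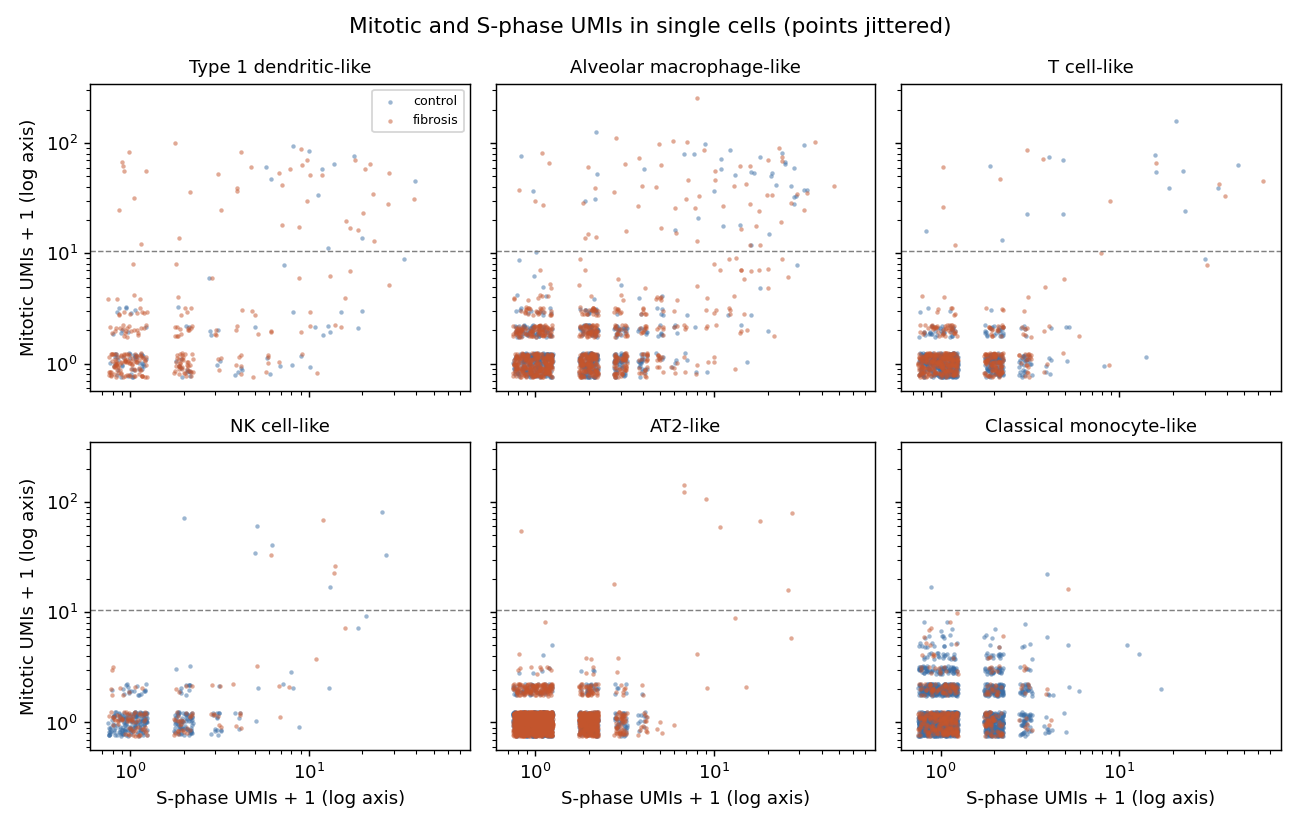
Mitotic against S-phase UMIs in single cells of 6 classes, each plus 1 on log axes with jitter, control in blue and fibrosis in orange, and the dashed line at the bound of 10 mitotic UMIs. The 40 mitosis-rich fibrosis cells of the type 1 dendritic-like class and the 59 of the alveolar macrophage-like class form a cloud above the line, and the classical monocyte-like cells fill the space of 2 to 9 mitotic UMIs with few S-phase UMIs.

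All 41 members were higher in these cells. For each gene in turn, cells that were mitosis-rich by the other genes were compared with cells of 0 or 1 other mitotic UMIs, over both libraries. Hmmr, a spindle protein, stood at 124 against 0.134 CPM, Nusap1 at 279 against 0.519 CPM and Ccna2 at 235 against 0.486 CPM. Top2a, the topoisomerase that untangles sister chromosomes, stood at 672 against 2.52 CPM and had a UMI in 84.0% of the mitosis-rich cells. Mki67, the usual marker of proliferation, stood at 358 against 1.97 CPM and was seen in 84.2% of them. The least selective mitotic genes were Bub1b (80.2 against 3.83 CPM), Cenpa (299 against 10.4 CPM), Bub1 (45.8 against 1.59 CPM) and Kif23 (154 against 5.26 CPM). Of the S-phase list only Rrm2 (291 against 1.68 CPM) and Uhrf1 (78.5 against 1.71 CPM) were more than 20-fold higher in mitosis-rich cells. Pcna stood at 225 against 29.5 CPM and Mcm4, the least selective member, at 40.5 against 8.80 CPM. The tables also list the pseudogene Pcna-ps2, so reads of Pcna may have been split with it.

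Most mitosis-rich cells also had S-phase UMIs. In the control library 73 of the 90 (81.1%) had at least 2 S-phase UMIs and 9 had none, and in the fibrosis library 131 of 167 (78.4%) had at least 2 and 21 had none. Seen from the S-phase side a higher bound was used, so these directions cannot be ranked. Of the cells with 10 or more S-phase UMIs, 24 of 72 in the control library and 42 of 104 in the fibrosis library were not mitosis-rich. Only 3 such cells in each library had no mitotic UMI at all.

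**Figure D2:**
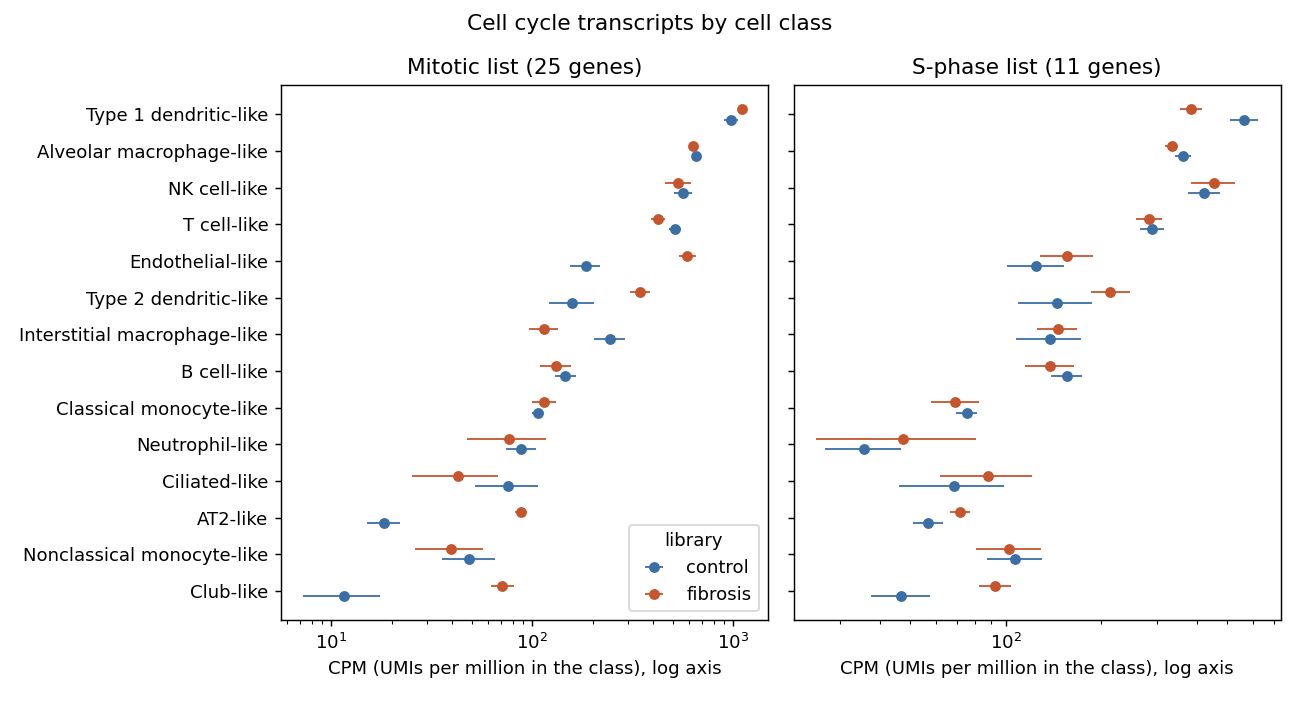
Summed CPM of the mitotic list (left) and the S-phase list (right) in the 14 classes, on log axes, with exact Poisson 95% intervals. Type 1 dendritic-like cells (971 and 1100 CPM) and alveolar macrophage-like cells (654 and 630 CPM) lead the mitotic panel, and club-like control cells (11.6 CPM) stand lowest.

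Ranked by the mitotic level, the same 2 classes led in both libraries. Type 1 dendritic-like cells were highest at 971 CPM (control) and 1100 CPM (fibrosis). Alveolar macrophage-like cells followed at 654 and 630, natural killer (NK) cell-like cells at 562 and 533, and T cell-like cells at 511 and 422. In the control library the intervals of NK (507 to 621) and T cell-like cells (477 to 546) overlapped, so these neighbours did not differ beyond counting error. In the fibrosis library endothelial-like cells (591, 535 to 650) stood between alveolar macrophage-like (609 to 652) and NK cell-like cells (457 to 617), and the intervals of these neighbours overlapped. The S-phase order was close to this: type 1 dendritic-like cells 565 and 384 CPM, NK cell-like cells 421 and 452, alveolar macrophage-like cells 362 and 334, and T cell-like cells 289 and 283. In the fibrosis library NK cell-like cells thus stood above type 1 dendritic-like cells on the S-phase scale, although their intervals overlapped. The ratio of the libraries lay outside counting error for the mitotic list in 7 of 14 classes, higher in fibrosis in 5 and lower in 2, and for the S-phase list in 5, higher in 3 and lower in 2.

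**Figure D3:**
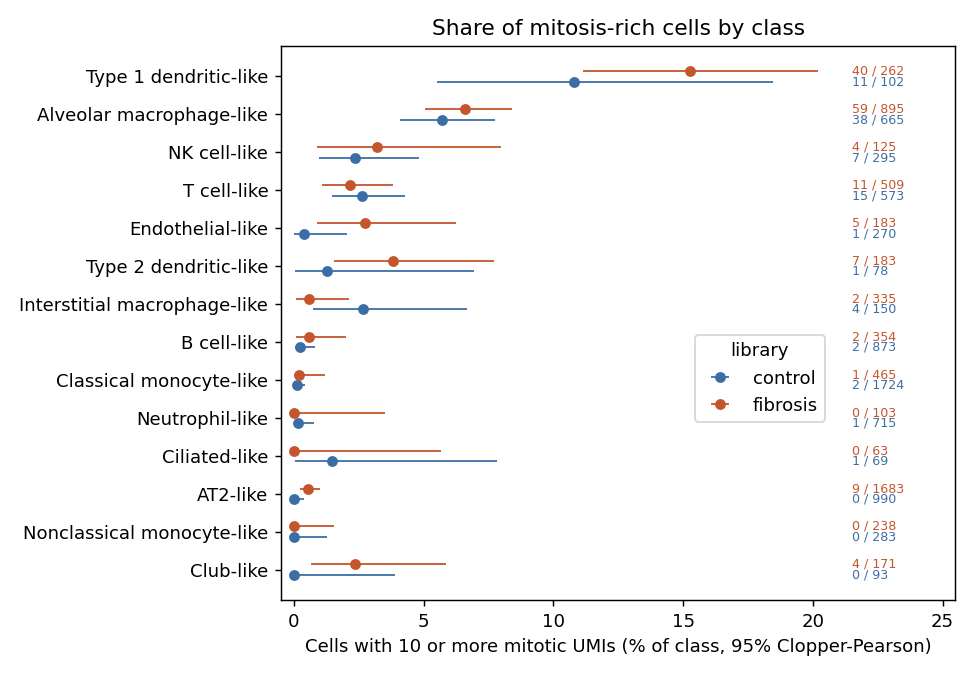
Share of cells with 10 or more mitotic UMIs in each class and library with exact Clopper-Pearson 95% intervals and, at the right, the cells behind each point. The share is 10.8% and 15.3% in type 1 dendritic-like cells and 5.71% and 6.59% in alveolar macrophage-like cells, and it is under 1% in classical monocyte-, B cell- and AT2-like cells of both libraries.

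Type 1 dendritic-like cells, the cross-presenting dendritic cells, held the largest share of mitosis-rich cells among the 14 classes. They numbered 11 of 102 in the control library (10.8%, 5.51 to 18.5) and 40 of 262 in the fibrosis library (15.3%, 11.1 to 20.2), and these intervals overlapped. After thinning each cell to 1000 UMIs, 9.80% and 13.7% had at least 2 mitotic UMIs, against 23.5% and 26.7% without thinning. The same thinned share was 0.280% and 0.971% in neutrophil-like cells, a class past division, at median depths of 1848 and 2373 UMIs against 5967 and 6283.5 here. Top2a stood at 124 and 133 CPM, Ube2c at 81.1 and 113, Birc5 (survivin) at 104 and 88.3, Mki67 at 73.5 and 78.5, and Cenpa, the centromeric histone, at 56.7 and 71.0. These mitotic levels were close in the 2 libraries. A gene with at least 10 UMIs over both libraries in a class was compared, and it was called higher or lower where its CPM ratio was 2 or more. Calls use the ratio alone, so the counting interval of a called gene can include no difference. Where 1 library has few UMIs, genes meet this bound through the other, so such counts of calls follow the level of the list. Of the 25 mitotic genes compared 1, Cenpf (27.6 and 56.0 CPM), was called higher in fibrosis and 1, the Polo kinase Plk1 (21.4 and 8.66 CPM), lower. Of all genes in the class 9.01% were called higher and 4.18% lower.

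The S-phase list went the other way in type 1 dendritic-like cells, at 565 CPM (control) and 384 CPM (fibrosis) (log2 ratio -0.56, -0.74 to -0.37). The helicase genes Mcm6 (106 and 52.5 CPM) and Mcm7 (91.9 and 39.8 CPM) were called lower, where 4.18% of all genes were. Mcm5 stood at 56.7 and 31.2, Pcna at 73.5 and 61.8, and Rrm2 at 61.2 and 53.1 CPM. The difference was larger among the cells that were not mitosis-rich, at 419 CPM (366 to 478) in 91 control cells and 217 CPM (193 to 243) in 222 fibrosis cells, where the mitotic list was 105 and 99.7 CPM. There, Mcm6 was at 94.0 and 36.6 CPM, Mcm7 at 65.8 and 21.3, and Mcm5 at 56.4 and 21.99. The control side of this comparison rests on few cells, since 15 control cells had 10 or more S-phase UMIs and 8 of them were not mitosis-rich.

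Alveolar macrophage-like cells held the most mitosis-rich cells, 38 of 665 in the control library (5.71%, 4.08 to 7.76) and 59 of 895 in the fibrosis library (6.59%, 5.06 to 8.42). Together with type 1 dendritic-like cells they made up 49 of 90 and 99 of 167 such cells. After thinning, 6.47% and 7.26% of the class had at least 2 mitotic UMIs, against 12.5% and 18.7% without thinning, at median depths of 4915 and 5320 UMIs. Top2a stood at 90.2 and 74.9 CPM, Birc5 at 52.1 and 47.1, Mki67 at 50.6 and 40.8, Ube2c at 29.6 and 38.1, and Cenpa at 32.8 and 35.6. Among the S-phase genes Pcna stood at 98.8 and 90.9 CPM, Rrm2 at 41.7 and 41.2, Mcm7 at 52.9 and 33.7, Mcm6 at 31.9 and 35.3, and Mcm3 at 34.6 and 33.0. All 41 members were compared and none was called in either direction, where 5.45% of all genes were called higher and 2.97% lower in fibrosis. The median log2 ratio of the mitotic list was 0.00, against -0.06 over all genes of the class.

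Clustering that left out the members and the other cycle genes listed below, but no further gene of the cycle, drew most mitosis-rich macrophages together. Of the 3 clusters of gated alveolar macrophage-like cells, cluster 26 held 33 mitosis-rich of 50 control cells (66.0%) and 39 of 62 fibrosis cells (62.9%). Cluster 1, the largest, held 4 of 583 (0.686%) and 4 of 507 (0.789%). Hist1h2ap, a histone gene on none of the lists left out, stood at 616 and 2488 CPM in cluster 26. In cluster 1 it stood at 9.22 and 53.1 CPM. Cluster 23 was high in Mmp12, a macrophage elastase, and Spp1, osteopontin, in the fibrosis library (2127 and 4234 CPM) and numbered 32 control and 325 fibrosis cells. Mitosis-rich cells were 16 of these 325 (4.92%, 2.84 to 7.87) and 1 of the 32 control cells. In the fibrosis library clusters 23 and 1 had median depths of 6525 and 4668 UMIs, and the part of depth was not tested. Cluster 26 had drawn off 39 of the 59 mitosis-rich fibrosis cells. Its fibrosis levels of Mmp12 and Spp1 (129 and 508 CPM) lay nearer to those of cluster 1 (40.3 and 490 CPM). Cluster 1 was thus counted without those cells, so no order of clusters 1 and 23 is read from the shares. The clusters were cut from these same cells, so their shares are a description only.

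T cell-like and NK cell-like cells held mitosis-rich cells in both libraries. Mitosis-rich cells were 15 of 573 and 11 of 509 T cell-like cells (2.62% and 2.16%) and 7 of 295 and 4 of 125 NK cell-like cells (2.37% and 3.20%). T cell-like cells had Cenpa at 55.9 and 50.04 CPM, Top2a at 53.5 and 43.4, Birc5 at 57.6 and 38.03, Ube2c at 45.2 and 46.0, Ccnb2 at 47.5 and 31.4, and Mki67 at 20.8 and 25.4. The mitotic list was lower in fibrosis (log2 ratio -0.28, -0.43 to -0.13), but outside the mitosis-rich cells the direction turned, at 50.2 CPM (39.7 to 62.7) and 86.6 CPM (71.9 to 103). Of 24 mitotic genes compared none was called higher and 2 were called lower, Bub1b (5.35 and 1.33 CPM) and Cdc20 (23.8 and 10.7 CPM), where 6.69% and 3.84% of all genes were so called. Among the S-phase genes Uhrf1, which carries DNA methylation through replication, was called higher (5.94 and 12.7 CPM), while Pcna stood at 40.4 and 52.7 CPM, Mcm7 at 45.8 and 44.7, Mcm6 at 36.2 and 44.7, Rrm2 at 33.9 and 21.3, and Mcm5 at 32.1 and 22.02.

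In NK cell-like cells many S-phase transcripts lay outside the mitosis-rich cells. Outside the mitosis-rich cells the S-phase list stood at 329 CPM (286 to 376) in control and 354 CPM (291 to 427) in fibrosis cells. The same value was 180 and 184 CPM in T cell-like cells and 151 and 130 in B cell-like cells. Pcna stood at 71.7 and 105 CPM, Mcm6 at 77.5 and 65.8, Mcm7 at 55.6 and 59.8, Rrm2 at 43.9 and 44.9, and Mcm5 at 40.96 and 35.9. Thinned to 1000 UMIs, 7.46% of control and 4.0% of fibrosis NK cell-like cells had at least 2 S-phase UMIs, whereas without thinning the order was reversed at 11.5% and 18.4%, so no order is read from it. B cell-like cells reached 1.15% and 0.282% after thinning. Median depths were 1970 and 2335 UMIs in NK and 1852 and 2537 in B cell-like cells. Of 18 mitotic genes compared 2 were called lower in fibrosis, Hmmr (13.2 and 2.99 CPM) and Cenpe, a kinetochore motor (17 UMIs and 0, at least 2.77-fold lower counted against 3 UMIs), and none was higher, where 7.76% and 6.61% of all genes were so called. Top2a (99.5 and 89.8 CPM), Birc5 (57.0 and 65.8), Mki67 (35.1 and 53.9), Ube2c (46.8 and 26.9) and Ccna2 (33.6 and 38.9) differed by less than 2-fold.

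AT2-like cells, the surfactant-making epithelial cells, had the most mitotic genes past 2-fold between the libraries. The list stood at 18.3 CPM in 990 control cells and 88.2 CPM in 1683 fibrosis cells, 4.83-fold higher (3.96 to 5.94). Of the 25 mitotic genes 23 were called higher in fibrosis and none was lower, where 6.14% of all genes were higher and 1.84% lower. Many had few or no control UMIs and met the bound of 10 UMIs through the fibrosis library. The count is therefore not independent of the level. Top2a had 1 UMI in control and 108 in fibrosis cells (0.166 and 10.5 CPM, log2 ratio 5.99, 3.48 to 11.30). Ube2c had 1 and 76 UMIs, Birc5 2 and 60, Cdca3 1 and 42, Ccnb2 1 and 29, and Mki67 8 and 50 (1.33 and 4.87 CPM). Nusap1, Cenpe, Aurka, Aurkb and Tpx2 had no control UMI and 30, 19, 15, 13 and 13 fibrosis UMIs, which is at least 5.87-, 3.72-, 2.93-, 2.54- and 2.54-fold higher counted against 3 UMIs. Cenpf (1.66 and 6.72 CPM) and Cdc20 (2.16 and 5.85 CPM) were also higher. The exceptions were the checkpoint kinase genes Bub1 (6.31 and 5.07 CPM) and Bub1b.

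This shift rested on few cells. None of 990 control AT2-like cells (which allows up to 0.372%) and 9 of 1683 fibrosis cells (0.535%, 0.245 to 1.01) were mitosis-rich. Those 9 cells had 15 to 141 UMIs from 7 to 24 mitotic genes and held 72.4% of the class's mitotic UMIs. Outside them the level was 18.3 and 24.6 CPM. Their median level of AT2 markers was 971 UMIs per 10000 against 1693 in the other cells, and the level of the alveolar macrophage markers was 0 in 6 of them and highest at 15.7 in 1. By clusters 8 of the 9 lay in an AT2-like cluster and 1 in alveolar macrophage cluster 26. Doublet handling weighed on the contrast: 3 control and 2 fibrosis AT2-like cells that were mitosis-rich had been removed by doublet score. With no removal the counts were 3 of 1091 (0.275%) and 11 of 1831 (0.601%), and the log2 ratio was 1.01 in place of 2.27. The S-phase list differed less, at 56.8 and 71.8 CPM, and 4 of 11 S-phase genes were called higher, where 6.14% of all genes were: Rrm2 (2 and 36 UMIs), Uhrf1 (2 and 22), Mcm5 (10 and 39) and Gins2, a helicase cofactor (5 and 19). Pcna stood at 19.4 and 18.6 CPM, Tyms at 9.46 and 11.5, Mcm6 at 6.81 and 9.16, Mcm7 at 6.64 and 8.77, and Mcm4 at 4.65 and 5.16.

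Endothelial-like cells followed the same direction. The mitotic list stood at 184 CPM in 270 control cells and 591 CPM in 183 fibrosis cells (log2 ratio 1.68, 1.40 to 1.97). Of 19 mitotic genes compared 15 were called higher and none lower in fibrosis, where 6.61% and 7.50% of all genes were so called. Nusap1, a spindle microtubule binder, had 4.07 and 32.9 CPM, Mki67 8.13 and 41.5, Kif20b 6.78 and 28.6, Ube2c 12.2 and 51.5, Cdc20 8.13 and 32.9, Cenpf 14.9 and 55.8, Top2a 17.6 and 55.8, and Cenpa 17.6 and 50.04. Cdca8 and Cenpe both had 6.78 and 21.4 CPM, and Tpx2 4.07 and 12.9. Here too few cells carried the difference: 1 control cell with 105 mitotic UMIs (0.370%) and 5 fibrosis cells with 28 to 186 (2.73%, 0.893 to 6.26). Those 5 held 93.0% of the fibrosis mitotic UMIs, and without the mitosis-rich cells the levels were 42.3 and 44.5 CPM. Alveolar macrophage markers were at 0 in 4 of the 5. Totals of the 5 ranged from 2203 to 26823 UMIs against a class median of 2892, and the part of depth was not tested. The median level of endothelial markers in the 5 was 89.9, against 143 in the other fibrosis cells of the class. This is on the scale used for AT2-like cells. Mcm5 (5.42 and 18.6 CPM), Mcm2 (4.07 and 11.4) and Mcm4 (5.42 and 11.4) were called higher, while Pcna (31.2 and 34.3), Mcm6 (21.7 and 20.02), Mcm3 (23.0 and 17.2) and Mcm7 (16.3 and 24.3) were not.

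In club-like cells, the secretory cells of the airway, the mitotic list stood at 11.6 CPM in 93 control and 71.0 CPM in 171 fibrosis cells (log2 ratio 2.62, 1.99 to 3.32). All 9 of the 25 mitotic genes that could be compared were called higher, where 11.6% of all genes were higher and 1.63% lower. Each had at most 5 control UMIs and met the bound of 10 UMIs through the fibrosis library. The count is therefore not independent of the level. Top2a had 2 and 33 UMIs (1.05 and 10.2 CPM), Birc5 1 and 16, Ccnb2 1 and 15, Cenpa 3 and 19, and Kif23 5 and 18. Mki67, Cdk1, Cdca3 and Cenpf had none in control and 16, 15, 14 and 12 in fibrosis, at least 3.13-, 2.94-, 2.74- and 2.35-fold higher counted against 3 UMIs. The direction depended on how cells were put in the class. Of the 4 mitosis-rich fibrosis cells, with totals of 26950 to 92993 UMIs against a class median of 15574, 2 lay in the club-like cluster, and with clusters in place of gates the log2 ratio was -0.35. With the median depths of 19193 and 15574 UMIs, the thinned share of cells with 2 mitotic UMIs was 1.08% and 0.585%, against 2.15% and 14.6% without thinning. Of 11 S-phase genes 5 were called higher: Mcm6 (3.68 and 12.0 CPM), Mcm3 (0.526 and 4.32), Gins2 (1.05 and 5.25), Rrm2 (1.05 and 4.63) and Mcm5 (1.05 and 4.32). Pcna stood at 13.7 and 24.4 CPM, Mcm7 at 5.79 and 9.88, Tyms at 6.84 and 7.72, and Uhrf1 at 5.79 and 7.72.

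Ciliated-like cells, a class past division, gave no lowest level among epithelial cells, since AT2-like and club-like control cells stood lower (18.3 and 11.6 CPM). No cluster was named ciliated. In 8.70% of the control and 23.8% of the fibrosis cells the marker level was under 1.5 times that of the next class. Mitotic UMIs numbered 32 in 69 control cells and 18 in 63 fibrosis cells (75.7 and 42.7 CPM), and 1 control cell of 14494 UMIs held 65.6% of the control UMIs. Kif23 had 5 UMIs in each library, Cenpf 5 and 2, Kif11 1 and 5, Top2a 5 and 1, Cdc20 4 and 1, and Mki67 1 and 1. The 1 mitotic gene compared, Kif23, was not called. Among 3 S-phase genes compared Mcm4 (3 and 10 UMIs) and Pcna (5 and 12) were called higher and Mcm7 (7 and 3) called lower, where 7.28% and 5.01% of all genes were so called. Uhrf1 had 4 and 3 UMIs, and Tyms 4 and 2.

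Type 2 dendritic-like cells were higher and interstitial macrophage-like cells lower in mitotic transcripts in the fibrosis library. In the former the list stood at 157 CPM in 78 control and 344 in 183 fibrosis cells (log2 ratio 1.13, 0.73 to 1.54), and 1 and 7 cells were mitosis-rich (1.28% and 3.83%). Of 16 mitotic genes compared 9 were called higher and none lower, where 9.44% and 5.03% of all genes were so called. Here too, genes with few control UMIs met the bound through the fibrosis library, so the count is not independent of the level. Mki67 stood at 5.07 and 24.7 CPM, Cenpf at 2.54 and 20.4, Ube2c at 5.07 and 20.4, Cdca8 at 2.54 and 15.0, Nusap1 at 5.07 and 14.0, Kif23 at 5.07 and 12.9, Cdca3 at 7.61 and 17.2, and Cenpa at 15.2 and 32.2. Kif11, a motor that pushes the spindle poles apart and the other called gene, had 0 and 13 UMIs, at least 1.83-fold higher counted against 3 UMIs. Top2a (35.5 and 56.9 CPM) and Birc5 (17.8 and 22.5) were not called. With no doublet removal the libraries had 2 mitosis-rich cells of 82 and 7 of 193, and the log2 ratio was 0.36. The 7 mitosis-rich fibrosis cells had lower type 2 dendritic markers than the rest, at a median of 10.98 against 18.04 UMIs per 10000.

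The S-phase list in type 2 dendritic-like cells stood at 145 and 214 CPM. Uhrf1 (2.54 and 18.3 CPM) and Gins2 (2.54 and 14.0) were called higher of 11 genes compared, where 9.44% of all genes were. Pcna stood at 27.9 and 38.7 CPM, Mcm3 at 17.8 and 32.2, Mcm7 at 15.2 and 27.9, Mcm6 at 17.8 and 21.5, and Rrm2 at 12.7 and 19.3. In interstitial macrophage-like cells the mitotic list stood at 244 CPM in 150 control and 114 CPM in 335 fibrosis cells (log2 ratio -1.10, -1.45 to -0.75). Of 8 mitotic genes compared 3 were called lower and none higher, where 5.92% and 9.39% of all genes were so called: Birc5 (32.4 and 5.39 CPM), Ccnb2 (22.9 and 3.85) and Cenpe (9.54 and 3.85). Cenpa stood at 42.0 and 25.4 CPM, Top2a at 24.8 and 13.9, and Mki67 at 17.2 and 11.6. This rested on 4 control cells with 10 to 45 mitotic UMIs (2.67%, 0.731 to 6.69) and 2 fibrosis cells with 25 and 39 (0.597%, 0.0724 to 2.14). The 4 control cells had no S-phase UMI. Those with 13 and 10 mitotic UMIs had 4 mitotic genes each and no UMI of Top2a or Mki67. Without the mitosis-rich cells the mitotic levels were 61.1 and 65.1 CPM. The S-phase list hardly differed, at 137 and 146 CPM, with Pcna at 36.3 and 40.1, Mcm6 at 28.6 and 22.3, Mcm3 at 15.3 and 26.2, Mcm7 at 13.4 and 11.6, and Gins2 at 13.4 and 8.47. Mcm4 (3.82 and 8.47 CPM) and Tk1, thymidine kinase (3.82 and 12.3 CPM), were called higher, where 9.39% of all genes were. The log2 interval of Tk1 (-0.397 to 4.86) includes 0.

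Classical monocyte-like cells had mitotic UMIs but hardly any mitosis-rich cells. The mitotic list stood at 107 CPM in 1724 control and 115 CPM in 465 fibrosis cells, but only 2 and 1 cells were mitosis-rich (0.116% and 0.215%). The UMIs were spread over many cells: 181 control cells (10.5%) and 38 fibrosis cells (8.19%) had 2 to 9. Of these, 13 and 5 had a UMI of Top2a or Mki67, and 114 and 15 had one of Ube2c. Ube2c stood at 30.7 and 20.4 CPM, Cenpa at 12.8 and 24.98, Cdca3 at 12.3 and 7.65, Ccnb2 at 9.63 and 16.8, and Kif23 at 7.61 and 7.14. Top2a stood at 1.68 and 6.12 CPM and Mki67 at 2.13 and 1.53. Together with Aurkb those 5 leading genes, a set of 6 chosen after the values were seen, gave 76.6% and 69.5% of mitotic UMIs outside mitosis-rich cells. In alveolar macrophage-like cells outside the mitosis-rich ones the same 6 genes gave 38.1% and 31.9%, and in AT2-like cells 10.9% and 20.4%. In neutrophil-like cells they gave 84.8% and 85.7%, above the share in classical monocyte-like cells, though of only 92 and 21 UMIs. B cell-like (57.2% and 63.6%) and T cell-like cells (53.8% and 55.7%) lay between. Classical monocyte-like cells, 23.0% of the kept control cells, held 44.3% of all Ube2c UMIs of the control library. Over all kept cells Ube2c stood at 19.1 CPM (control) and 21.2 CPM (fibrosis). The class level of 30.7 CPM in control lay above this, and that of 20.4 CPM in fibrosis did not. Median S-phase UMIs in the cells with 2 to 9 mitotic UMIs were 0 in both libraries.

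**Figure D4:**
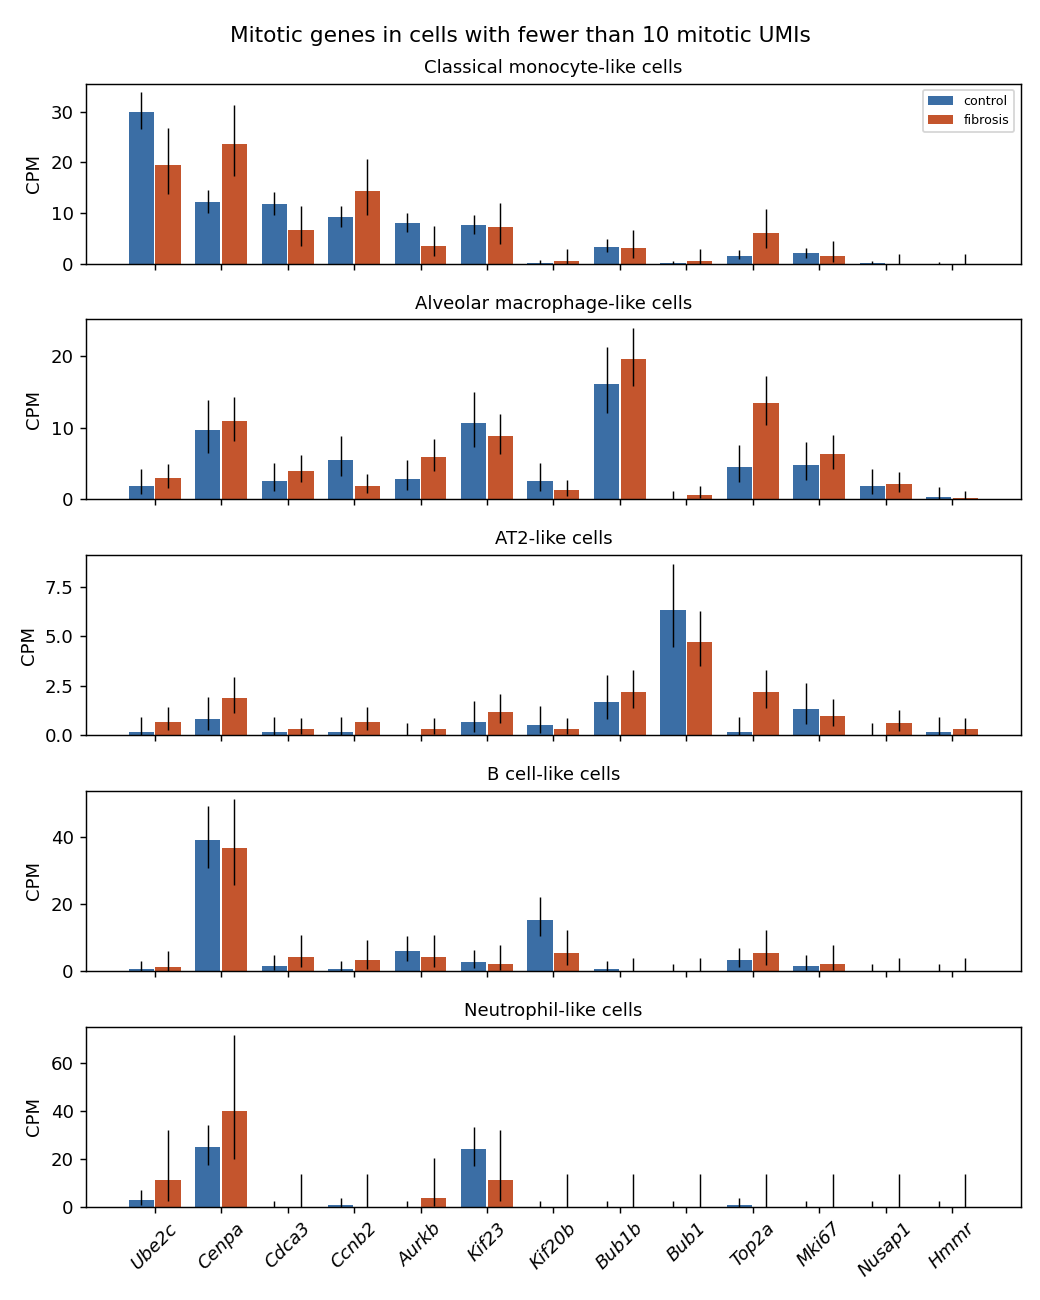
CPM of 13 mitotic genes in cells with fewer than 10 mitotic UMIs, for 5 classes and both libraries, with exact Poisson 95% intervals. In classical monocyte-like cells Ube2c leads in control (30.1 CPM, Cenpa 12.1) and Cenpa in fibrosis (23.6 CPM, Ube2c 19.5). In both libraries Bub1b leads in alveolar macrophage-like cells (16.1 and 19.5), Bub1 in AT2-like cells (6.31 and 4.72), and Cenpa in B cell-like (39.2 and 36.9) and neutrophil-like cells (24.7 and 39.9).

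Of 16 mitotic genes compared in classical monocyte-like cells 4 were called higher in fibrosis and 3 lower, where 6.74% and 4.78% of all genes were so called. The higher genes were Top2a, Cdc20 (0.672 and 2.04 CPM), Birc5 (2.91 and 7.14) and Cenpf (2.80 and 5.61). The lower genes were Cdca8 (4.93 and 1.53 CPM), Aurkb (7.95 and 3.57) and Ccna2 (1.12 and 0.510). Pcna stood at 26.7 and 28.5 CPM, Mcm7 at 8.85 and 7.14, Mcm4 at 7.39 and 6.12, Mcm5 at 6.61 and 6.12, and Mcm3 at 6.49 and 5.61, and Mcm6 (6.38 and 3.06) was called lower. Nonclassical monocyte-like cells, the patrolling monocytes, held no mitosis-rich cell among 283 control cells (up to 1.295%) and 238 fibrosis cells (up to 1.54%). Their mitotic list stood at 48.7 and 39.3 CPM, led by Cenpa (12.7 and 16.8) and Kif23 (9.53 and 4.21), with no UMI of Mki67 in either library and Top2a at 3 UMIs in each. Cdc20 and Kif20b had 3 and 1 UMIs. Of 2 mitotic genes compared Kif23 was called lower, and of 7 S-phase genes Mcm2 (8.47 and 4.21 CPM) was, where 5.71% of all genes were lower and 5.43% higher. Their S-phase list, at 107 and 102 CPM, lay above that of the classical cells (75.2 and 69.3). Pcna stood at 44.5 and 44.9 CPM, Mcm7 at 14.8 and 9.82, Mcm3 at 8.47 and 14.0, and Mcm5 and Mcm6 both at 7.41 and 11.2.

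Neutrophil-like and B cell-like cells, taken as classes with few dividing cells, gave the background. In neutrophil-like cells 1 of 715 control and 0 of 103 fibrosis cells were mitosis-rich, and the mitotic list stood at 88.1 and 76.3 CPM. Cenpa (25.2 and 39.9 CPM) and Kif23, a kinesin of the cleavage furrow (24.5 and 10.9), gave most of it, and Ube2c had 5.30 and 10.9. Birc5 had 10 and 0 UMIs, Top2a 7 and 0, and Mki67 1 and 0, and 6 of the Top2a UMIs came from the 1 mitosis-rich cell. Of 4 mitotic genes compared 1 was called higher, Ube2c, and 2 lower, Kif23 and Birc5, where 22.7% and 9.54% of all genes were so called. The Birc5 difference, counted against 3 UMIs, allows no direction at this depth. Of 2 S-phase genes compared Mcm4 (13 and 1 UMIs) was lower. Pcna had 15 and 4 UMIs, Mcm7 6 and 2, Tyms 6 and 1, and Rrm2 5 and 1.

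B cell-like cells had 2 of 873 and 2 of 354 mitosis-rich cells (0.229% and 0.565%) and a mitotic level of 146 and 132 CPM. Cenpa led at 40.6 and 43.8 CPM, and outside the mitosis-rich cells it still stood at 39.2 and 36.9. Kif20b, a kinesin of late mitosis, stood at 16.9 and 6.26 CPM, Top2a at 10.0 and 14.6, Cdca3 at 6.85 and 7.31, Aurkb at 6.85 and 5.22, and Mki67 at 4.22 and 4.18. Of 14 mitotic genes compared 1 was called higher, Ccnb2 (1 and 9 UMIs), and 3 lower, Kif20b, Cdca8 and Ube2c (both 7.91 and 3.13 CPM), where 5.30% and 4.95% of all genes were so called. Among the S-phase genes Mcm2 was lower (12.1 and 2.09 CPM). Pcna stood at 30.0 and 33.4 CPM, Mcm7 at 28.5 and 20.9, Mcm6 at 25.8 and 25.1, Mcm3 at 15.8 and 14.6, and Mcm5 at 13.7 and 12.5.

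**Figure D5:**
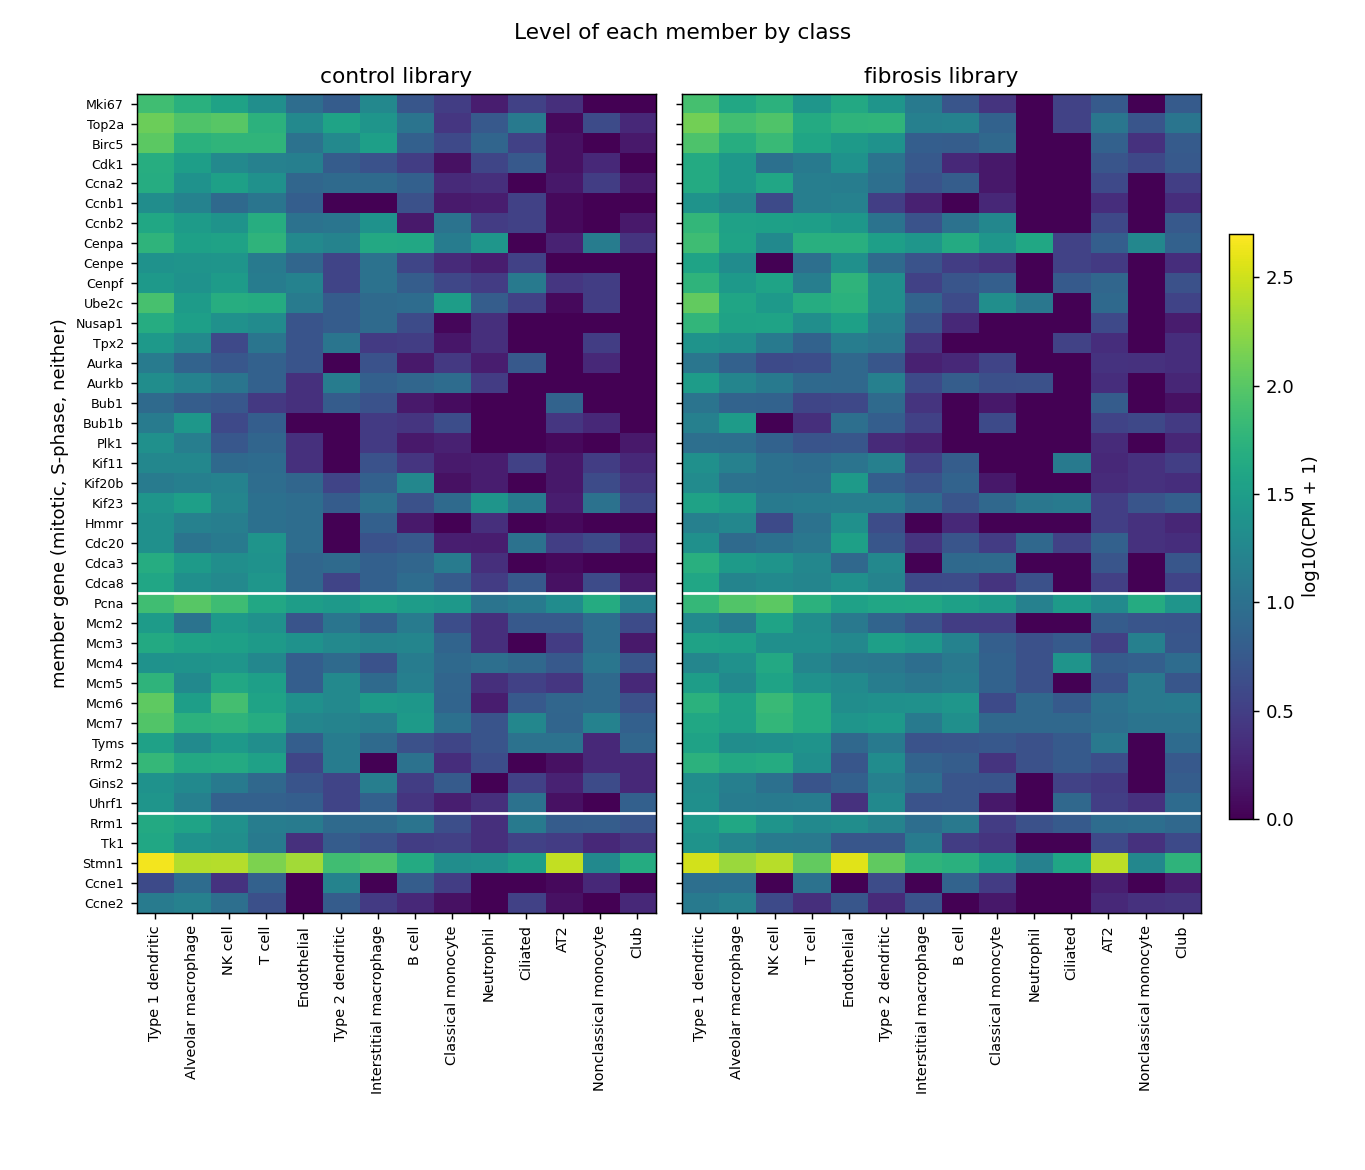
Level of each of the 41 members, as log10(CPM + 1), in 14 classes of the control (left) and fibrosis (right) libraries, with classes ordered by their mitotic level and white lines between the mitotic list, the S-phase list and the 5 others. Most mitotic genes fade from left to right, whereas Stmn1 is high in AT2-like cells (283 and 266 CPM) and Cenpa in B cell-like cells (40.6 and 43.8 CPM).

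A few members were thus found in cells with few other mitotic UMIs. Stmn1, which codes for the microtubule regulator stathmin, was the clearest: 41.7% of its control and 47.4% of its fibrosis UMIs lay in AT2-like cells. Its level there was 283 and 266 CPM, and 283 and 240 CPM outside mitosis-rich cells. In endothelial-like cells it was 213 and 377 CPM, and 191 and 260 outside mitosis-rich cells. It stood at 449 and 326 CPM in type 1 dendritic-like, 244 and 193 in alveolar macrophage-like, 247 and 257 in NK cell-like and 144 and 112 in T cell-like cells. It was lower in type 2 dendritic-like (73.6 and 108), interstitial macrophage-like (85.9 and 55.5), B cell-like (43.8 and 51.2), club-like (45.2 and 55.6) and ciliated-like cells (30.8 and 37.98). The lowest levels were in classical monocyte-like (20.2 and 30.6), nonclassical monocyte-like (17.999 and 16.8) and neutrophil-like cells (21.9 and 14.5). Stmn1 was called in none of the 14 classes.

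Bub1 had 49.4% of its control and 40.3% of its fibrosis UMIs in AT2-like cells, mostly outside mitosis-rich cells, where it stood at 6.31 and 4.72 CPM. In 8 of the other classes it had no UMI outside mitosis-rich cells in either library. Bub1b, its partner at the checkpoint, was instead found in alveolar macrophage-like cells outside the mitosis-rich ones, at 16.1 and 19.5 CPM, against at most 3.37 CPM in the other 13 classes. Of the genes in neither list, Rrm1 stood highest in type 1 dendritic-like (42.9 and 27.7 CPM) and alveolar macrophage-like cells (36.1 and 39.3), and Tk1 in the same classes (39.8 and 23.1, and 22.8 and 16.0). Ccne2, an E cyclin, stood at 14.5 CPM in alveolar macrophage-like cells of both libraries. Ccne1 stood at 7.99 and 8.96 CPM in the same cells, and its highest control level, 15.2 CPM in type 2 dendritic-like cells, came from 6 UMIs. Ccne1 was called higher in fibrosis in type 1 dendritic-like cells (3.06 and 8.66 CPM, log2 interval -0.605 to 4.67). Ccne2 was called higher in AT2-like cells (2 and 11 UMIs, log2 interval -0.506 to 4.91). Both intervals include 0, and 9.01% and 6.14% of all genes were called higher in these classes.

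Other genes of the cycle, in lists that hold no member, were compared in the same cells. In mitosis-rich against mitotic-negative alveolar macrophage-like cells, all 13 further mitosis genes and all 15 further G1/S and replication genes were called higher in both libraries, as were the 7 chromatin and tubulin genes. There, 13.6% and 10.1% of all genes were higher. Mitosis-rich cells are deeper and were chosen by their mitotic genes, so this describes them and tests nothing. Between the libraries, 8 of 9 further mitosis genes compared in AT2-like cells were called higher, where 6.14% of all genes were, among them Racgap1 (2 and 39 UMIs), Spc25 (8 and 42), Cdca2 (2 and 25) and Knstrn (1 and 19). In endothelial-like cells 6 of 6 were, against 6.61% of all genes, among them Prc1 (16.3 and 44.3 CPM) and Racgap1 (4.07 and 20.02). In club-like cells 3 of 4 were, against 11.6% of all genes. The 4 genes named for AT2-like cells had fewer than 10 control UMIs and met the bound through the fibrosis library. Counts of calls in the endothelial- and club-like cells likewise follow the level of the list. In type 2 dendritic-like cells 1 of 5 was higher and 1 lower, against 9.44% and 5.03%. Of the further G1/S and replication genes, these 4 classes in the same order had 1 of 14, 0 of 7, 2 of 11 and 2 of 9 called higher and none lower. In type 1 dendritic-like cells 6 of 15 of them and 2 of 13 further mitosis genes were called lower and none higher, where 4.18% of all genes were lower and 9.01% higher. Among the lower were Cdt1, which helps to load the MCM helicase (26.0 and 12.1 CPM), and Fen1, the flap nuclease (29.1 and 12.1 CPM). In interstitial macrophage-like cells 3 of 11 further G1/S and replication genes were lower and 1 higher, and 1 of 3 further mitosis genes was lower, where 5.92% of all genes were lower and 9.39% higher. In classical monocyte-like cells 2 of 15 and 2 of 6 were lower and none higher, where 4.78% of all genes were lower. In alveolar macrophage-like cells none of the 15 or 13 passed in either direction.

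Among the regulators, D cyclins differed widely between classes. Ccnd1 stood at 125 and 162 CPM in AT2-like, 166 and 268 in club-like and 429 and 360 in type 2 dendritic-like cells, and at 4.14 and 7.24 in alveolar macrophage-like cells. Ccnd2 was the D cyclin of alveolar macrophage-like (466 and 401 CPM), T cell-like (434 and 406) and NK cell-like cells (903 and 754). It was called lower in fibrosis in AT2-like (78.5 and 38.8), type 2 dendritic-like (360 and 159) and interstitial macrophage-like cells (120 and 50.1). Of all genes 1.84%, 5.03% and 5.92% were lower there. Ccnd2 was called higher in neutrophil-like (39.1 and 120) and classical monocyte-like cells (6.72 and 17.3), where 22.7% and 6.74% of all genes were. Ccnd3 stood at 283 and 220 CPM in classical monocyte-like and 307 and 251 in neutrophil-like cells. Foxm1, the factor that drives mitotic genes, had 19 and 16 UMIs in alveolar macrophage-like cells and 1 and 8 in AT2-like cells. Of the inhibitors, Cdkn1a (p21) was called higher in interstitial macrophage-like cells (59.2 and 126 CPM), where 9.39% of all genes were. It was lower in type 1 dendritic-like (62.8 and 30.6), B cell-like (10.5 and 4.18) and neutrophil-like cells (16.6 and 7.26). Of all genes 4.18%, 4.95% and 9.54% were lower there. Cdkn2a, which codes for p16 and ARF, was called higher in alveolar macrophage-like cells (4.14 and 10.5 CPM), where 5.45% of all genes were. It was lower in type 1 dendritic-like (10.7 and 3.46) and endothelial-like cells (18.97 and 4.29), where 4.18% and 7.5% of all genes were. The lower Cdkn2a calls and the fibrosis Cdkn1a level of neutrophil-like cells rest on few UMIs. Cdkn1b was not called in any of the 14 classes. Hmgb2, a chromatin protein often read as a sign of division, stood at 442 and 462 CPM in classical monocyte-like and 1144 and 832 CPM in neutrophil-like cells, above the 256 and 246 CPM of alveolar macrophage-like cells.

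Smaller classes added few dividing cells. Type 2 innate lymphoid-like cells had 0 mitosis-rich of 21 control and 2 of 78 fibrosis cells, with a mitotic level of 356 CPM in the latter. Plasma cell-like cells numbered 3, all from the fibrosis library, and 1 of them was mitosis-rich. After thinning, no fibroblast-like, mesothelial-like or plasmacytoid dendritic-like cell in either library had 2 mitotic UMIs, at 43 and 50, 33 and 28, and 58 and 43 cells. Migratory dendritic-like cells likewise had none among 10 control and 78 fibrosis cells (up to 4.62% in the latter).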

How the data were processed

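Single-cell 3′ RNA sequencing (10x V2) was done on 2 mouse lung libraries, control and fibrosis, 1 mouse each. The authors deposited raw UMI counts per gene and cell, unnormalized, which per the submitters' processing notes were made with bcl2fastq and Cell Ranger 1.3 on mm10. The annotation version is not given in the sources used here. The members and lists were chosen with earlier results of these data known. The gate's scoring rule was set after class counts were seen, and the bound of 10 mitotic UMIs and the set of 6 genes in monocytes after the members' values were seen.

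Cells with fewer than 200 genes (1 and 0) or over 10% mitochondrial UMIs (254 and 228) were removed. Doublets were scored with scrublet in scanpy 1.11.5, and the top-scoring 6.42% and 5.56% (0.8% per 1000 cells) were removed, because the caller's own threshold marked 0.187% and 2.29%. A marker counted as on above the 99.9% Poisson quantile of its median level over the cells of the library. This median stood in for free RNA, which was not measured. It is 0 for a marker absent from most cells, and 1 UMI then turned the marker on. A cell took the class with the highest marker level if at least 2 markers were on and the level was at least 1.25 times the next. The gates used 154 markers in 24 classes, 4 of which were not found by symbol. Clusters made without the members and the other listed cell cycle genes gave 96.2% of 12231 compared cells the same class. The smallest kept depth allowed thinning to 1000 UMIs with no cell left out, since the lowest deposited totals were 1460 and 1915.

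UMIs were summed per class and library and given as CPM with exact Poisson 95% intervals, ratios with exact conditional binomial intervals, and shares with Clopper-Pearson intervals (scipy 1.17.1). Floors use 3 counts. A gene with at least 10 UMIs in a class over both libraries was called at a CPM ratio of 2. Named genes are the called members (up to 10 a class and direction), the 5 members of each list with the most UMIs in a class, and Mki67, Top2a, Pcna and Stmn1. The calculation was tested on simulated data. Alternatives were other class, doublet, depth and list choices.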

Additional observations from a re-analysis of the deposited data

Results flagged for a closer look

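Mitosis-rich cells were also found among cells that entered no comparison. Of the fibrosis cells that no class gate took, 20 of 623 (3.21%, 1.97 to 4.91) had 10 or more mitotic UMIs, above the 7 of 399 (1.75%) in the control library, although the intervals overlapped. Their best-scoring class was alveolar macrophage in 7, type 1 dendritic in 4 and type 2 dendritic in 4. Among cells removed by doublet score the share was 2.52% in the control library (13 of 515) and 3.11% in the fibrosis library (12 of 386), against 1.20% and 2.55% of the kept cells. The removed cells were deeper, with medians of 5845 and 6719.5 UMIs against 3706 and 4237, and the part of depth was not tested.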

How the results depend on the processing

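No paired analysis was possible because each group had 1 library. Of 306 alternative values for levels 271 lay within the interval of the reported value, whatever their sign, 29 moved outside it and 6 reversed. A change of sign was counted as reversed only where the reported interval excluded 0, so some values that moved also changed sign. Of 320 for shares 308 stayed within the interval and 12 moved. A stricter gate, no mitochondrial filter, dropping Top2a or Pcna from its list, a bound of 3 UMIs, thinning to 1400 UMIs and centring on medians moved none. Values below are log2 ratios of fibrosis over control. Without mitosis-rich cells, an alternative chosen after seeing the data, the mitotic ratio reversed in interstitial macrophage- (0.0925), type 1 dendritic- (-0.0790) and T cell-like cells (0.79). It moved in alveolar macrophage- (0.31), type 2 dendritic- (0.27), NK cell- (0.31), AT2- (0.43), club- (1.52), ciliated- (0.67) and endothelial-like cells (0.0750). The S-phase ratio then reversed in alveolar macrophage-like cells (0.13) and moved in type 1 dendritic- (-0.95), AT2- (0.14) and club-like cells (0.47). With clusters in place of gates the mitotic ratio reversed in club-like cells (-0.35) and moved in alveolar macrophage- (-0.23), type 1 dendritic- (0.34), B cell- (0.26) and AT2-like cells (1.77). With no doublet removal it was 0.36 in type 2 dendritic- and 1.01 in AT2-like cells, and with the caller's threshold 0.38 and 0.94, with the AT2 S-phase ratio at 0.0849. With a floor of 1915 UMIs it was -0.60 in NK cell-, -0.55 in B cell- and 1.35 in endothelial-like cells. Per cell in place of per UMI, the mitotic ratio was 0.15 in alveolar macrophage-, -0.19 in classical monocyte-, 0.17 in B cell- and 2.16 in endothelial-like cells. The S-phase ratio per cell reversed in alveolar macrophage-like cells (0.0889) and was -0.41 in classical monocyte-, 0.14 in B cell- and 0.81 in endothelial-like cells. Differences in shares of cells, in percentage points, moved without thinning to 6.18 (alveolar macrophage), -2.23 (classical monocyte) and 12.5 (club) for mitotic UMIs. For S-phase UMIs they moved to -1.95 (classical monocyte), -3.49 (nonclassical monocyte), 6.33 (type 2 dendritic), 6.87 (NK cell), 11.4 (ciliated) and 3.72 (endothelial). With a bound of 1 UMI the mitotic difference was 5.23 in alveolar macrophage- and 1.35 in AT2-like cells, and the S-phase difference 5.14 in endothelial-like cells. Apart from those the construction explains, the cause was not tested. Classes with few mitosis-rich cells limit what these libraries can show: the ratios rest on 0 to 15 such cells a library outside the type 1 dendritic- and alveolar macrophage-like classes.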
